A study of Mus musculus with 9 samples.

Results

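Serpins are proteins that share a fold built to trap serine or cysteine proteases: the target protease cuts an exposed loop, and the serpin then locks it in an inactive complex. Clade B serpins lack a classical secretion signal and mostly act inside cells, where blood cells use them against the granule proteases they themselves store or meet, while the secreted serpins act on clotting, fibrinolysis and complement. The group described here has 7 members. Serpinb1a is the mouse relative of the human neutrophil elastase inhibitor, which blocks elastase, cathepsin G and proteinase 3. Serpinb2 (plasminogen activator inhibitor 2) acts on urokinase and tissue plasminogen activator, Serpinb9 on granzyme B, and the human relative of Serpinb6a on cathepsin G. Serping1 is the C1 inhibitor of complement and the contact system, Serpinf1 (pigment epithelium-derived factor) has a serpin fold but no known protease target, and Serpine2 (protease nexin 1) inhibits thrombin.

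All probe sets that the platform annotation pairs with exactly 1 of these symbols were taken, on all 9 arrays. This gave 8 probe sets for 6 of the 7 genes, out of 12393 genes on the array, and 7 of the 8 probe sets passed the filter on low values described below. The annotation used here pairs no probe set with Serpine2, which was not analysed here. The members were chosen on their measured signals by stage, with the differences between stages known, so their levels and differences are given as a description, with errors and without p-values.

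The RNA came from primary mouse megakaryocytes, the large marrow cells that shed platelets, grown from bone marrow or fetal liver preparations with thrombopoietin, the cytokine of this lineage. The cells had been sorted on high surface CD41, an integrin chain that marks the lineage, and on forward scatter, which follows size. Cultures were sorted on days 3, 4 and 6. The stages are named MKP, with 2 arrays, MK3 and MK4, with 2 arrays each, and MK6, with 3 arrays, and the day on which MKP cells were taken is not stated in the sources used here. The labels give no genotype, strain, treatment beyond thrombopoietin or animal age, do not say which of the tissues a sample came from, and leave unsaid whether replicate arrays represent separate cultures or animals. The spread between arrays, on which the errors and p-values below rest, may therefore be technical.

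Of the 12 megakaryocyte markers listed, 9 were measured, and their summed scaled signal ran from 9922 to 10195 in MKP, was 9879 and 22447 on MK3 replicates 1 and 2, and ran from 17824 to 20906 in MK4 and from 16896 to 19961 in MK6. Other cells were represented too. The 11 measured neutrophil markers summed to 39991 to 48962 in MKP, 36481 to 36501 in MK3, 26320 to 28140 in MK4, and 15059, 30046 and 7084 on MK6 replicates 1, 2 and 3. The 11 measured macrophage markers summed to 9231 to 11830 in MKP, 13793 to 25053 in MK3, 11694 to 15722 in MK4 and 9978 to 22698 in MK6. The ratio of 3' to 5' beta-actin signal, which grows as RNA fragments, was 0.957 to 1.09 before MK6 and 1.49, 1.33 and 3.21 on MK6 replicates 1, 2 and 3. Before scaling, MK6 replicates 1 and 3 were the dimmest arrays, with trimmed means of 103 and 102, against up to 221 on the others. In sorted bulk samples, fewer cells of a type and less RNA per cell cannot be told apart.

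The DNA just upstream of the annotated start was read for the members whose level was higher in MK6 than in MKP, Serpinb2, Serpinb6a and Serpinb9, to show what sequence lies at the genes that moved the same way. RefSeq promoter entries (build GRCm38.p6) were matched for 5 of the 7 members. The entries lie at chr1:107511173-107511422 (plus strand) for Serpinb2, at chr13:34002795-34003044 and chr13:33936084-33936333 (both minus strand) for the outer and the inner start of Serpinb6a, and at chr13:33004291-33004540 (plus strand) for Serpinb9. Each line gives 250 bases from 5′ to 3′ that end just before the start, with capitals for any match to 4 short motifs of blood transcription factors.
Serpinb2: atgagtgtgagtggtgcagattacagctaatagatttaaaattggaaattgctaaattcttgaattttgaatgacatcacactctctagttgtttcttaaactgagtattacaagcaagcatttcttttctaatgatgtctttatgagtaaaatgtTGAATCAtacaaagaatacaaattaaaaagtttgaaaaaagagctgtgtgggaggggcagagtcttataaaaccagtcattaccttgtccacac
Serpinb6a outer start: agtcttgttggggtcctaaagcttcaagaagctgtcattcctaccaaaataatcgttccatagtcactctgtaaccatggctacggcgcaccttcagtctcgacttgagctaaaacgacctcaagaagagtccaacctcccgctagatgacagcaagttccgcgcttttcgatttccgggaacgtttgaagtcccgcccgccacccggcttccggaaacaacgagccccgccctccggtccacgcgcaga
Serpinb6a inner start: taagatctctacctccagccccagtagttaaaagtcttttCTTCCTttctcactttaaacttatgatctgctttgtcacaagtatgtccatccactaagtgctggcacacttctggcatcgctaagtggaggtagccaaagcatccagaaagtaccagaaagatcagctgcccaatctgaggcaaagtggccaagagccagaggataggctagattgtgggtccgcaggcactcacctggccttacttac
Serpinb9: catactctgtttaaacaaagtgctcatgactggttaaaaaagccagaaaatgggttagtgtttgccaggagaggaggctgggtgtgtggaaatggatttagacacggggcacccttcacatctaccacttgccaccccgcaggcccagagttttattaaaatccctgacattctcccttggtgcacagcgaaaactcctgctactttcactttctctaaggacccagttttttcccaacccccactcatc

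The motifs were searched on both strands. GATA factors were represented by the letters AGATAA. The core that AP-1 and NF-E2 bind, which has C or G at its centre, was searched in a looser form. This was TGANTCA, where N is any base. ETS factors were represented by AGGAAG, and for RUNX factors, which bind near many blood genes, the letters were TGTGGT. No match overlapped another. The Serpinb2 window held 1 match, TGAATCA, whose first base lies at -94 from the start. The match has A at N, so it fits the looser form only and not the core itself. That looser form occurred in 6.75% of the 32851 upstream windows of the same length in the RefSeq table. The window of a second Serpinb2 start further downstream, not printed, holds the same match and also AGATAA at -41, a motif found in 9.99% of windows. The inner start of Serpinb6a held CTTCCT, the other strand of AGGAAG, at -210 (29.5% of windows). The outer Serpinb6a and the Serpinb9 windows held none of the 4 motifs as written. Sites of the same factors with other letters were not searched, so a lack of matches does not show a lack of sites. Members that did not rise or were not measured held matches too. The Serpinf1 window, not printed, held AGATAA at -137 and TGTGGT at -117 and -90, with an MK6 minus MKP difference of -0.44. The Serpine2 window held AGGAAG at -25. A match is a string of letters and was not measured as a bound site here.

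Serpinb2 was the member with the largest positive difference over the course, and it was low on both MKP arrays. Its scaled signal was 87.8 and 155 in MKP, 119 and 577 in MK3, 592 and 576 in MK4, and 665, 948 and 855 in MK6. The MK6 arrays all lay above the MKP arrays and also above the MK4 arrays, whereas of the MK3 arrays one was among the MKP values and the other level with MK4. The mean log2 signal was 9.70 ± 0.26 (SD, n = 3) in MK6 and 7.05 ± 0.51 (SD, n = 2) in MKP, a difference of 2.65 ± 0.49 (standard error of the fit). That is 6.26-fold on the log2(signal + 15.2) scale used, which understates the change of dim genes, and 22 of the 9397 tested genes had a larger positive difference. Ordered by mean, the stages ran MKP, MK3, MK4, MK6, and the only neighbours whose arrays did not overlap were MK4 and MK6. The MK3 minus MKP difference was 2.16 without MK3 replicate 1 and 0.02 without MK3 replicate 2. These replicates also stood apart in the summed megakaryocyte markers given above, which were 9879 on the low one and 22447 on the high one. The part of this in the Serpinb2 values was not tested.

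Serpinb9, the granzyme B inhibitor that protects cells from their own or a killer cell's granzyme, also had its highest level in MK6. Its scaled signal was 10.96 and 62.0 in MKP, 81.1 and 136 in MK3, 76.6 and 133 in MK4, and 213, 141 and 205 in MK6. All MK6 arrays lay above all MK4 and MKP arrays, and both MK3 arrays lay above both MKP arrays, while MK3 and MK4 overlapped. The mean log2 signal was 7.64 ± 0.31 (SD, n = 3) in MK6 and 5.49 ± 1.10 (SD, n = 2) in MKP, a difference of 2.15 ± 0.44 in the fit. On MKP replicate 1 the signal was under the pseudocount of 15.2, and under the filter of 46.7 as well. The difference was 1.36 without MKP replicate 1 and 2.92 without MKP replicate 2.

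Serpinb6a had the narrowest spread of the 6, and its highest level was in MK3 and not at the end of the course. Its scaled signal was 209 and 194 in MKP, 1227 and 1324 in MK3, 459 and 748 in MK4, and 718, 594 and 605 in MK6. Both MK3 arrays lay above all 7 others, and both MKP arrays lay below all others. The mean log2 signal was 10.33 ± 0.08 (SD, n = 2) in MK3 and 7.76 ± 0.07 (SD, n = 2) in MKP, a difference of 2.57 ± 0.27 in the fit, or 5.95-fold. From MK3 to MK4 the difference was -1.10 ± 0.27, and MK6 minus MKP was 1.59 ± 0.24, or 3.01-fold. The stages ran MKP, MK4, MK6, MK3 by mean, and the neighbours MK4 and MK6 overlapped. Summed hepatocyte markers were also highest on both MK3 arrays, and the summed macrophage markers were highest on MK3 replicate 1. Of the single macrophage markers, Mrc1 (909 and 622), Adgre1 (1775 and 1154), Csf1r and C1qb were highest on both MK3 arrays. The other measured markers of that list were not. The hepatocyte list, with 9 of 11 measured, summed to 668 to 718 in MKP, 4312 and 3312 on the MK3 arrays, 569 and 1210 in MK4 and 174 to 386 in MK6. Their part in the Serpinb6a level was not tested. The summed macrophage signal was 25053 and 13793 on MK3 replicates 1 and 2. Over the 9 arrays, Pearson's r of the Serpinb6a log2 signal was 0.67 with the mean of the macrophage list and 0.53 with that of the hepatocyte list.

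**Figure D1:**
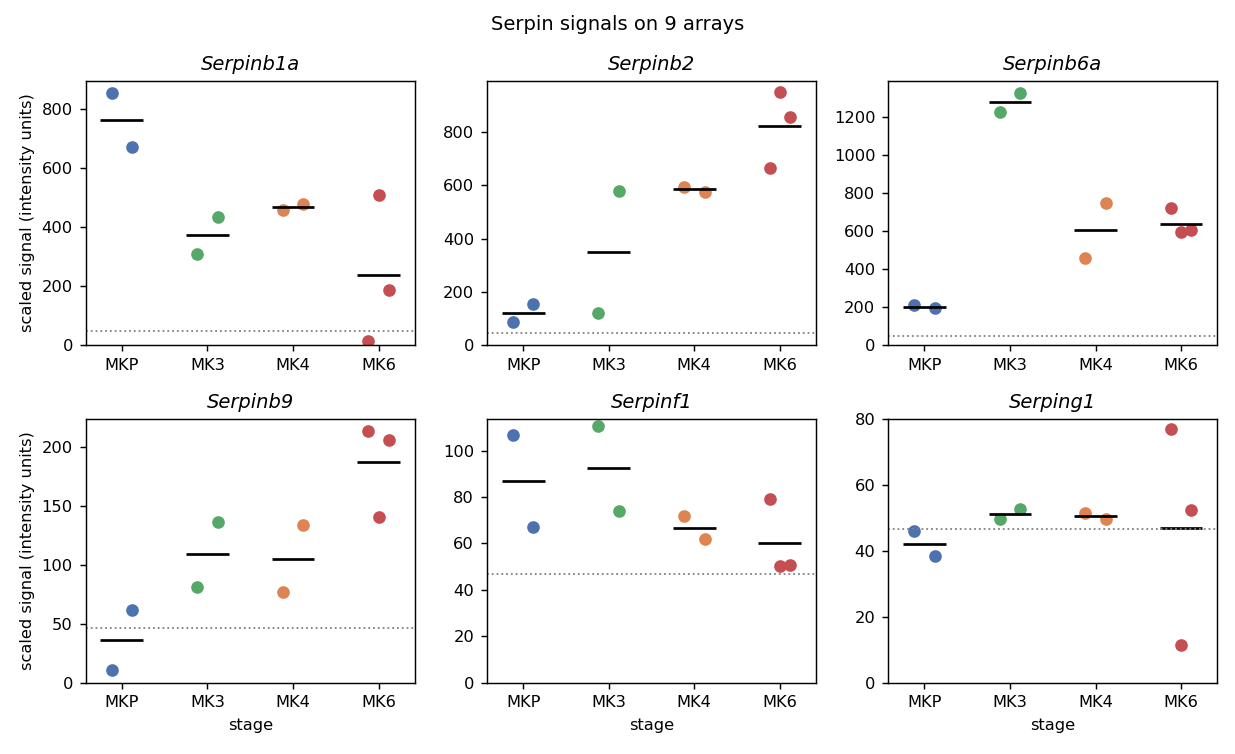
Scaled probe set signal (linear intensity units) of the 6 measured serpin genes on each array, by stage. Points are arrays, black lines stage means, and the dotted line the filter at 46.7; Serpinb2 and Serpinb9 are highest in MK6, Serpinb6a in MK3 at 1227 and 1324, and the MK6 arrays of Serpinb1a spread from 12.6 to 507.

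Serpinb1a, the elastase inhibitor, was highest in MKP, and its MK6 arrays did not share a level. On the probe set with the higher mean the scaled signal was 852 and 671 in MKP, 310 and 433 in MK3, 457 and 478 in MK4, and 12.6, 507 and 188 in MK6. Both MKP arrays lay above all 7 later ones, and the MK6 arrays covered values from below the filter to above both MK4 arrays. The mean log2 signal was 7.16 ± 2.16 (SD, n = 3) in MK6 and 9.59 ± 0.24 (SD, n = 2) in MKP, a difference of -2.43 ± 0.87 in the fit. Without MK6 replicates 1 and 3 it was -0.56, and without MK6 replicates 2 and 3 it was -4.79. The residual SD of 1.38 was larger than that of 99.96% of the tested genes. The fit pools the spread of all stages, so the error of 0.87 can be too small, given the SD of 2.16 in MK6. The second probe set gave 53.7 and 89.6 in MKP, 35.1 and 54.9 in MK3, 40.3 and 54.8 in MK4, and 4.16, 58.9 and 31.1 in MK6. It thus ranked the MK6 arrays in the same order, but its MK6 and MKP arrays overlapped, with a difference of -1.07. This set carries the suffix of probes that can match related transcripts, and Serpinb1b, a close relative on the array, was below the filter on all 9 arrays, at no more than 12.5. Serpinb1-ps1 and Serpinb1c, the neighbours of Serpinb1a on chromosome 13, had no probe set naming them alone, so their part in this signal was not tested.

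The proteases that Serpinb1a holds in check are neutrophil granule enzymes, and they split the MK6 arrays in a similar way. Elane, neutrophil elastase, had a scaled signal of 31.8, 620 and 36.6 on MK6 replicates 1, 2 and 3, against 3666 and 3315 in MKP. Replicate 2 was the highest of the 3 for Serpinb1a, Elane, Ctsg and Prtn3, while replicate 3 kept a Serpinb1a signal of 188 with Elane below the filter. The summed neutrophil markers given above were also highest on MK6 replicate 2, and their part in the Serpinb1a difference was not tested.

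Serpinf1 and Serping1, the secreted members, were dim at every stage. Serpinf1 read 107 and 67.2 in MKP, 111 and 74.1 in MK3, 71.6 and 62.0 in MK4, and 79.0, 50.2 and 50.9 in MK6 on its brighter probe set. MK6 and MKP overlapped, with a difference of -0.44 ± 0.31, and the other probe set was below the filter on all 9 arrays, at no more than 26.9. Serping1 read 45.9 and 38.5 in MKP, 49.6 and 52.6 in MK3, 51.5 and 49.5 in MK4, and 76.8, 11.4 and 52.2 in MK6. The MK6 arrays spanned the values of all other stages, the difference was -0.06 ± 0.47, and it was -1.13 without MK6 replicates 1 and 3 and 0.68 without replicates 2 and 3. Fibroblasts, endothelial cells and hepatocytes are among the cells that make secreted serpins. The hepatocyte markers were highest in MK3, with the sums given above. Of the 12 fibroblast and endothelial markers, 8 passed the filter and summed to 711 to 1053 in MK6 and 636 to 716 in MKP, with Lum, Pdgfrb, Postn and Cdh5 below it. The part of either list in these levels was not tested.

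In the fit over all genes (limma, Benjamini-Hochberg adjusted p below 0.05) 535 of 9397 genes were called between MK6 and MKP, or 5.69%, with 2.76% higher and 2.94% lower in MK6. Of the 6 measured members 3 were among those higher, Serpinb2, Serpinb6a and Serpinb9, and 0 among those lower. For MK3 against MKP, 5 genes were called, or 0.0532%, and Serpinb6a was among them. The members were chosen with these contrasts known, so nothing is read from either count. Against MKP, the count of members called in MK6 was 0 and 1 without MKP replicates 1 and 2, and 1 without MK6 replicate 3. The total over all genes was 3 and 22 without MKP replicates 1 and 2, 1090 and 150 without MK6 replicates 2 and 3, and 47 without both of MK6 replicates 1 and 3.

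The remaining serpins on the array are those that the choice of members left. That choice was made with the stage differences known, so they are not an independent set. There were 24 such genes, of which 15 passed the filter. Of these 15, 1 rose and 0 fell in MK6 against MKP (6.67%, against 5.69% of all genes), and 4 had an unadjusted p below 0.05 in limma. Their median difference was 0.48, against 0.13 for all genes tested, and 13 of 15 were positive, as were 59.2% of all genes. A gene dim in MKP could pass the filter through later stages alone, which can favour positive differences in a dim list. Serpinb7 and Serpini2 exceeded the filter only on MK6 replicates 1 and 3, at 55.1 and 79.1 and at 62.2 and 47.4. No conclusion is therefore drawn from the median or the signs. The median rested on the MK6 arrays used. It was 0.0020 without MK6 replicates 1 and 3, the dimmest arrays, 0.97 without MK6 replicates 2 and 3, and between 0.28 and 0.77 with any single array left out. With arrays scaled to a common median, which moved the median of all genes by -0.12, 9 of the 13 that passed the filter were positive, and with quantile normalization 10 of 13.

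The gene that rose was Serpinb6b, a clade B inhibitor close in sequence to Serpinb6a. Its scaled signal was 39.2 and 26.4 in MKP, 153 and 187 in MK3, 63.5 and 106 in MK4, and 83.7, 116 and 120 in MK6. The 2 genes shared a course, with both MKP arrays lowest and both MK3 arrays highest. The MK6 minus MKP difference of Serpinb6b was 1.34 ± 0.29 (limma adjusted p = 0.0261). The call ended without MKP replicate 1 (adjusted p = 0.16), MKP replicate 2 (0.23) or MK6 replicate 3 (0.0862), with quantile normalization (0.0672) or a common median (0.0618), and in the fit to the MKP and MK6 arrays alone (0.0611). It also ended with MK6 replicates 2 and 3 left out (0.0682) or replicates 1 and 3 left out (0.12). Both MKP values were below the filter, and a probe set of one gene can also capture RNA of such a relative, so the pair's likeness is uncertain as a measure of 2 separate genes.

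Among the uncalled serpins the differences were largest for Serpinb8, Serpina1c and Serpini1. Serpinb8, a clade B inhibitor, read 175, 68.5 and 90.6 in MK6, against 34.1 and 33.6 in MKP (difference 1.28 ± 0.45, limma adjusted p = 0.12). Serpina1c, of the alpha-1-antitrypsin family, differed by 0.88 ± 0.37 (limma adjusted p = 0.18) and Serpini1, neuroserpin, by 0.80 ± 0.37 (limma adjusted p = 0.22). Serpina1c overlapped between the stages, at 155, 53.0 and 122 in MK6 and 41.4 and 55.9 in MKP.

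**Figure D2:**
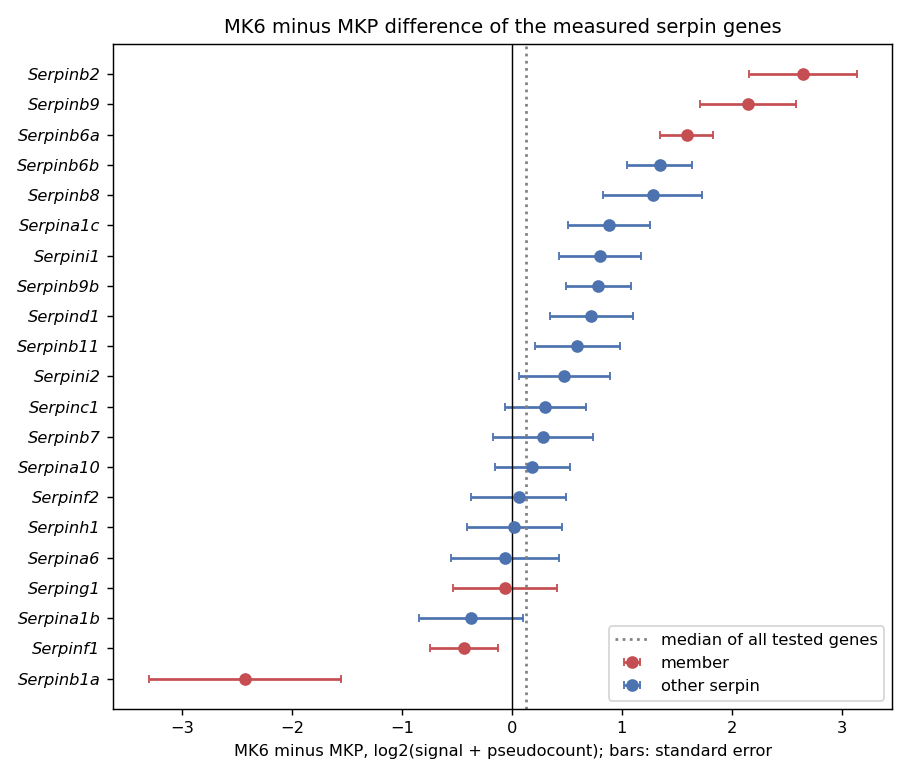
MK6 minus MKP difference in log2(signal + 15.2) of the 6 measured members and the 15 other serpins that passed the filter, with the standard error of the fit; the dotted line is the median of all genes, 0.13. Serpinb2, Serpinb9 and Serpinb6a have the largest positive values, at 2.65, 2.15 and 1.59, and Serpinb1a the largest negative one, at -2.43.

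Clade B genes sit in clusters on mouse chromosomes 1 and 13, with 12 and 17 genes in the RefSeq table, of which 5 and 9 were on the array and 4 and 5 passed the filter. The differences of the measured genes varied in size within both clusters. On chromosome 1 the MK6 minus MKP differences were 0.60 for Serpinb11, 0.28 for Serpinb7, 2.65 for Serpinb2 and 1.28 for Serpinb8, in chromosome order. On chromosome 13 they were -2.43 for Serpinb1a, 1.34 for Serpinb6b, 2.15 for Serpinb9, 0.78 for Serpinb9b and 1.59 for Serpinb6a. Serpinb1a, with a negative difference, thus lies in the same cluster as 2 members with positive ones.

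**Figure D3:**
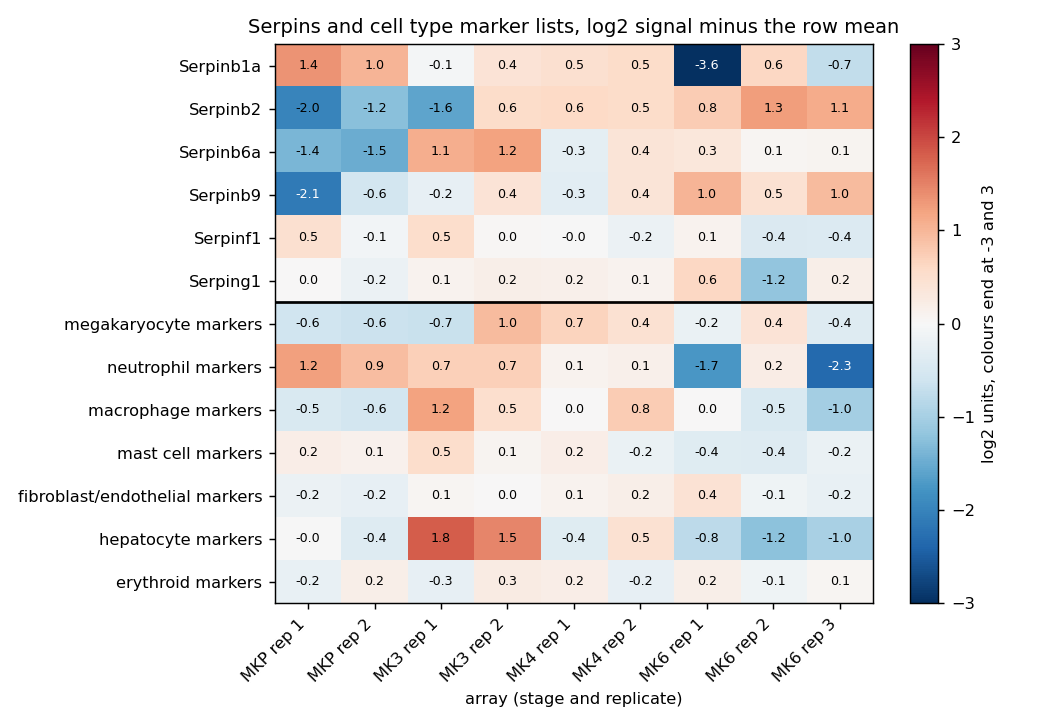
Log2 signal minus the mean of its row, on each array, for the 6 measured serpins (above the line) and for the mean of each cell type marker list (below it), with colours ending at -3 and 3 log2 units. Among the MK6 arrays, Serpinb1a and the neutrophil markers are both highest on replicate 2, while Serpinb1a is lowest on replicate 1 and the neutrophil markers on replicate 3; Serpinb2 is low on MK3 replicate 1, where the megakaryocyte markers are also low.

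Of the 25 proteases that the members inhibit or control, 15 passed the filter, and 0 rose and 3 fell in MK6 against MKP. That is 20% called, against 5.69% of all genes. Plau and Plat, the plasminogen activators that Serpinb2 inhibits, and the contact and complement enzymes F11, F12, Klkb1, C1ra and C1s1 were below the filter. The 3 that fell were known to fall before the list was made. Elane fell by 4.92 ± 0.86 log2 units (limma adjusted p = 0.0119). Ctsg, cathepsin G, fell by 4.24 ± 0.79 (limma adjusted p = 0.0154), and Prtn3, proteinase 3, fell by 3.52 ± 0.68 (limma adjusted p = 0.0177). The SDs of Elane, Ctsg and Prtn3 were 2.13, 1.95 and 1.66 in MK6, against 0.10, 0.23 and 0.18 in MKP. The fit pools the spread of all stages, so the errors and p-values of these genes can be too small. All 3 are also in the neutrophil marker list, whose sums are given above. Each of these calls ended without MKP replicate 1, MKP replicate 2 or MK6 replicate 3. The size of the fall depended on the MK6 arrays used. Without MK6 replicate 2 the differences were -6.14 for Elane, -5.36 for Ctsg and -4.46 for Prtn3. Without MK6 replicates 1 and 3 they were -2.46, -1.99 and -1.62 for the same genes in that order. Gzmb, the target of Serpinb9, read 91.4, 43.5 and 59.3 in MK6, against 122 and 151 in MKP, with a difference of -0.96 ± 0.29 that missed the threshold (limma adjusted p = 0.0797). It passed with quantile normalization (adjusted p = 0.0359), with a common median (0.0335) and without MK6 replicate 1 (0.0241). Gzma, a second granzyme, lay at 1.18 (limma adjusted p = 0.0894). It read 97.6, 52.6 and 110 in MK6, against 23.3 and 34.2 in MKP, and exceeded the filter on MK6 arrays only. Passing the filter in that way favours a positive difference, so nothing is read from the Gzma value. The basophil protease Mcpt8 lay at -0.95 (limma adjusted p = 0.13). The median difference of the list was 0.13, but -0.83 with the stricter filter, which left 10 of its genes, -0.055 with quantile normalization, -0.051 with a common median and -0.23 without MK6 replicates 1 and 3.

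Of 13 receptors and cofactors of serpins, 11 passed the filter, and 2 rose and 0 fell (18.2% called, against 5.69% of all genes). Their median difference was 0.68, against 0.13 for all genes, and was 0.24 without MK6 replicates 1 and 3. The value of 0.68 is that of Vtn, which was below the filter on both MKP arrays, at 25.3 and 21.5. As for the other serpins, a gene dim in MKP could pass the filter through later stages alone. No conclusion is therefore drawn from this median. Vldlr, a lipoprotein receptor family member that also takes up serpin and protease complexes, read 456, 784 and 857 in MK6, against 99.5 and 93.6 in MKP. It rose by 2.63 ± 0.44 (limma adjusted p = 0.0106), and its 3 other probe sets gave 2.26, 1.28 and 0.83. Sdc1, a heparan sulfate proteoglycan, read 451, 168 and 353 in MK6, against 46.8 and 53.7 in MKP, and rose by 2.27 ± 0.46 (limma adjusted p = 0.0202). Its other probe set that passed the filter gave 2.09, and those that did not pass gave 1.46 and 0.52. Both calls ended without MKP replicate 1 or without MKP replicate 2, and that of Sdc1 also without MK6 replicate 3 (adjusted p = 0.0747). With MK6 replicates 1 and 3 left out, the adjusted p was 0.0918 for Vldlr and 0.25 for Sdc1. Lrp1, the main clearance receptor of serpin complexes, lay at 1.11 ± 0.51 (limma adjusted p = 0.21), the integrin chain Itgav at 1.11 (limma adjusted p = 0.0682) and Itgb3 at -2.01 (limma adjusted p = 0.0568). The other Itgav probe sets gave 0.24 and, for the one that did not pass the filter, -1.29.

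Of 30 protease inhibitors outside the serpin family, 22 passed the filter, and 3 rose and 0 fell (13.6% called, against 5.69% of all genes). Their median difference was -0.0045, against 0.13 for all genes. Ctla2a, a cysteine protease inhibitor already known to rise on these arrays, rose by 2.58 ± 0.48 (limma adjusted p = 0.0149). Its near-identical relative Ctla2b rose by 2.19 ± 0.47 (limma adjusted p = 0.0242), and signal between this pair may be shared. Cstb, the intracellular cathepsin inhibitor cystatin B, read 3644, 2412 and 3301 in MK6, against 1100 and 1279 in MKP, and rose by 1.36 ± 0.29 (limma adjusted p = 0.0225). These 3 calls ended without MKP replicate 1, MKP replicate 2 or MK6 replicate 3, and with MK6 replicates 1 and 3 left out. That of Ctla2b also ended at a common median (adjusted p = 0.0595) and with MK6 replicates 2 and 3 left out (adjusted p = 0.0588). Stfa3, a neutrophil stefin, lay at -1.96 (limma adjusted p = 0.0547), the metalloprotease inhibitor Timp2 at 1.41 (limma adjusted p = 0.0544) and A2m at 1.09 (limma adjusted p = 0.12). The other Timp2 probe sets that passed the filter gave differences from 0.21 to 2.04. Timp2 passed the threshold in 7 of 19 alternatives, among them the fit to the MKP and MK6 arrays alone (adjusted p = 0.0261) and the fits without any 1 of the MK3 or MK4 arrays (0.0368 to 0.0462).

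**Figure D4:**
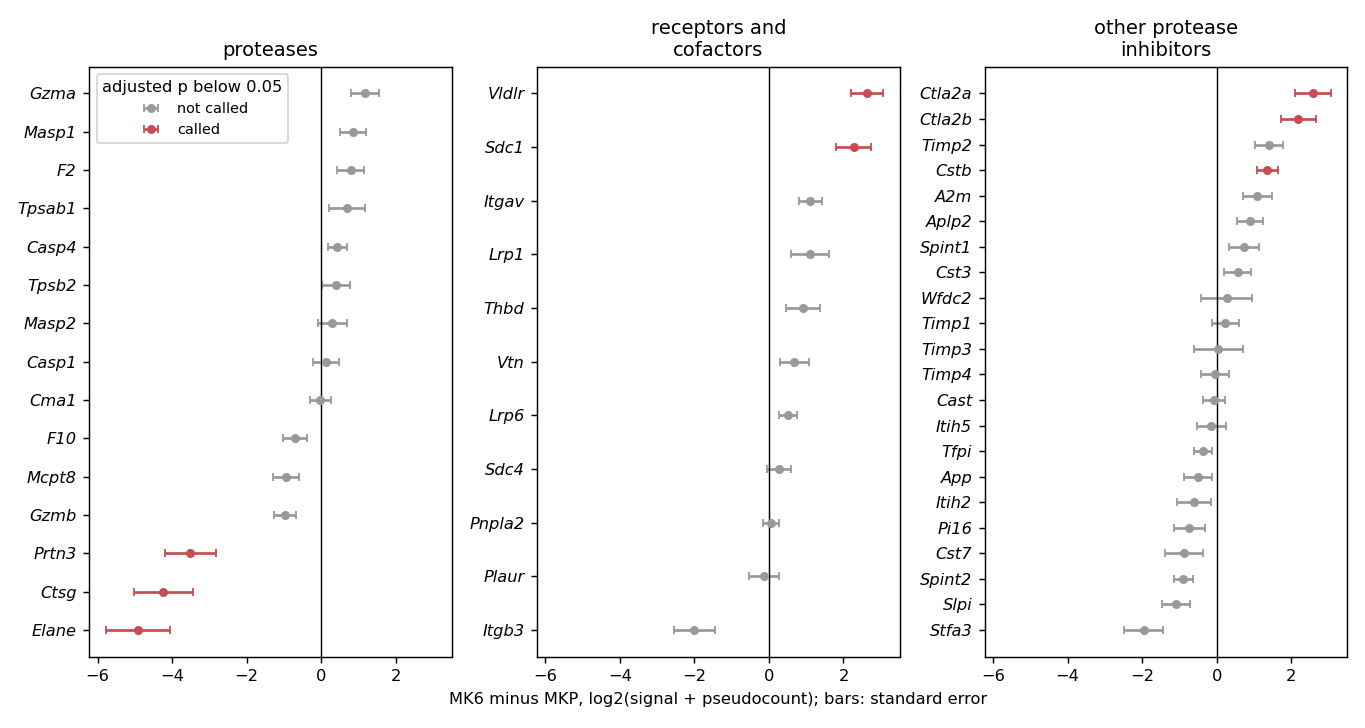
MK6 minus MKP difference in log2(signal + 15.2), with the standard error of the fit, for the proteases, the receptors and cofactors, and the inhibitors outside the serpin family that passed the filter. Red points have an adjusted p below 0.05: Elane, Ctsg and Prtn3 are lower in MK6, and Vldlr, Sdc1, Ctla2a, Ctla2b and Cstb are higher.

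The genes whose log2 signal followed a member most closely over the 9 arrays were ranked by Pearson's r, as a description in which the arrays share stage and processing. For Serpinb2 they were Derl1 (r = 0.99), Pls1 (r = 0.99) and Cavin2 (r = 0.98). For Serpinb6a they were Ckb (r = 0.96), Serpinb6b (r = 0.96) and Ehbp1l1 (r = 0.94), and for Serpinb9 they were Itgav (r = 0.95), Abi1 (r = 0.95) and Hba-a1 (r = 0.95). Serpinb1a was followed most closely by Top2a (r = 0.99), Bub1b (r = 0.98) and Tinf2 (r = 0.98). For the dim members they were Polg, Trpc4ap and Ltbr for Serpinf1 (r = 0.95, 0.93 and 0.93) and Slc12a4, Msmb and Sox17 for Serping1 (r = 0.98, 0.97 and 0.94).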

How the data were processed

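The authors' deposited values are probe set intensities of 9 single-colour Affymetrix MOE430A arrays on a linear scale, and the submitters' processing notes name MAS5. The sources used here give neither its version nor its settings, and the number of arrays limits the precision. Trimmed means (2% off each end) ran from 102 to 221, so each array was multiplied to a common trimmed mean of 161, which leaves out changes in total RNA per cell. The 20th percentile of the scaled signals, 15.2, was added before log2 was taken. Probe sets had to exceed the 40th percentile, 46.7, on 2 or more arrays, and the kept probe set with the highest mean stood for its gene. Of 22690 probe sets, 20380 named 1 gene, 691 several and 1555 none here, and 64 were controls. Symbols were updated through the RefSeq gene table.

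All arrays entered 1 model with a mean per stage in limma 3.58.1 (R 4.3.3; lmFit, then eBayes with its trend option; 5 residual degrees of freedom), tested on simulated data first, with p adjusted over 9397 genes. Each gene had 1 spread for all stages, so an error can be too small where a compared stage varied more than the others. Replicates are numbered in accession order and nothing pairs them across stages. MK6 replicates 2 and 3 here are the arrays whose titles number them 1 and 2. Named were all members and, from each list, up to 6 called genes and the 3 uncalled ones with the largest absolute difference. A gene named beyond this rule was chosen for its role or after its values were seen. The members and lists were chosen with earlier results of these data known. The alternatives were other pseudocounts, filters, scalings, probe set summaries and samples.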

Additional observations from a re-analysis of the deposited data

How the results depend on the processing

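Counts of called genes between MK6 and MKP depended mainly on single arrays. Over the 9 arrays left out in turn, the count ran from 3 to 1090 for all genes (535 with all arrays), 0 to 3 for the other serpins (1), 0 to 5 for target proteases (3), 0 to 3 for receptors and cofactors (2) and 0 to 7 for the other inhibitors (3). Leaving out 2 of the 3 MK6 arrays assumes that the remaining one varies like the other stages. The exclusion planned for the dimmest MK6 arrays named replicates 2 and 3 by a numbering slip, and so dropped the brightest MK6 array, replicate 2, and kept replicate 1. Without MK6 replicates 2 and 3 there were 1830 calls for all genes (890 higher, 940 lower), 4 for the other serpins and 7 for the other inhibitors. Without MK6 replicates 1 and 3, the dimmest arrays, an exclusion added after seeing the data, there were 47 for all genes, and 0 for the other serpins, for receptors and cofactors and for the other inhibitors. The other serpins also had 0 calls with quantile normalization, with a common median and in the fit to the MKP and MK6 arrays alone. The causes were not tested. The all-gene count stayed within 1.5 times of 535 in the other 13 alternatives, from 384 to 596. The 9 called list genes kept their sign in all 19 alternatives. All 9 calls were lost without MKP replicate 1 and without MKP replicate 2, 8 without MK6 replicate 3, and 0 without any 1 of the MK3 or MK4 arrays. Of the 12 uncalled genes named from the lists, 11 passed the threshold in at least 1 alternative, Serpini1 being the exception. The MK6 minus MKP difference ran from 2.28 to 3.01 for Serpinb2, 1.46 to 1.76 for Serpinb6a, 1.36 to 2.92 for Serpinb9 and -4.79 to -0.56 for Serpinb1a over these alternatives. Signals near the filter, as for Serpinf1 and Serping1, limit what could be seen of those genes. The serpins below the filter were not tested.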
